A study of Mus musculus with 22 samples.

Results

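The 9 genes followed here belong to B cells and to the lymphoid tissue that holds them. They were found by symbol among 770 genes measured with NanoString probes in mouse tumours, and all 9 were present: the 5 B cell markers Ms4a1, Cd79b, Cd22, Cr2 and Pax5, the chemokine receptor Cxcr5, the chemokines Cxcl13 and Ccl19, and the transcription factor gene Pou2f2. The RNA came from whole EMT-6 tumours, not from sorted cells. EMT-6 is a mouse mammary carcinoma line, here transplanted into the mammary fat pad of mice of the BALB/c strain, and each of the 22 libraries is 1 mouse. Treatment began at a tumour size of about 100 mm3 (day 0), and samples were taken on day 6.

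The tested groups were NHS-muIL12 at 2 µg (4 mice) and at 10 µg (3 mice), avelumab at 200 µg (3 mice), and avelumab at 200 µg together with NHS-muIL12 at 2 µg (4 mice) or at 10 µg (4 mice), called combination 2 µg and combination 10 µg. The comparison group received isotype control (4 mice). NHS-muIL12 joins mouse interleukin-12 to an antibody that binds DNA and histones in necrotic tissue, given once under the skin on day 0. Avelumab is an antibody that blocks PD-L1, given into a vein on days 0, 3 and 6. Mice that received NHS-muIL12 at either dose are called dosed (15 mice), and the avelumab and isotype mice together are called undosed (7 mice).

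As background, B cells carry CD20 (Ms4a1), the CD79B chain of the B cell receptor (Cd79b), the inhibitory receptor CD22 (Cd22) and the complement receptor CD21 (Cr2, also made by follicular dendritic cells), and Pax5 is the factor that keeps B cell identity. Stromal cells of lymphoid follicles release CXCL13, which draws in cells bearing CXCR5, whereas CCL19 from the T cell zone attracts cells bearing CCR7. Pou2f2 encodes OCT2, an octamer-binding factor best known from B cells but also made in other leukocytes. Follicle-like clusters of these cells, called tertiary lymphoid structures, can form in tumours.

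Values are signals on a linear scale, and tests were made on log2(signal + 1) with limma over 750 genes, with Benjamini-Hochberg adjustment within each comparison and an adjusted p under 0.05 as the threshold. Total signal per library ran from 300174 to 511105, and from 25 to 155 of the 770 genes were listed at 0. The lower quartile of signal ran from 3.36 to 51.5, and 4 libraries stood apart with the highest values: NHS-muIL12 2 µg replicate 3 (51.5), NHS-muIL12 10 µg replicate 3 (33.3) and isotype replicates 2 and 1 (43.0 and 39.1). All 9 genes lie in the dim part of the table, so the low end of a library bears on them. In whole tumours, fewer cells of a type and less RNA per cell cannot be told apart. No label pairs mice between groups, and the labels name each mouse as a separate replicate.

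Pou2f2 had a higher mean signal in every treated group, and it was the only one of the 9 genes whose call against isotype passed in any single group. Its signal was 36.1, 41.6, 29.7 and 28.8 in the 4 mice given NHS-muIL12 at 2 µg and 25.2, 17.8 and 29.9 in the 3 mice given 10 µg. It was 16.8, 16.5 and 25.2 in the avelumab mice. In the combinations it was 45.3, 29.9, 63.5 and 27.1 at 2 µg and 28.6, 22.3, 39.7 and 28.2 at 10 µg, against 0, 8.15, 0 and 14.04 in the isotype mice. Every treated mouse lay above the highest isotype mouse, so none of the 5 treated groups overlapped with isotype, and 13 of the 15 dosed mice lay above the highest undosed mouse. Among these 13, NHS-muIL12 10 µg replicate 1 was nearly level with that undosed mouse, avelumab replicate 4 (25.20 against 25.19). Group means were 34.1 ± 6.01 (SD, n = 4) with NHS-muIL12 2 µg, 24.3 ± 6.07 (SD, n = 3) with 10 µg, 19.5 ± 4.95 (SD, n = 3) with avelumab, 41.4 ± 16.7 (SD, n = 4) with combination 2 µg and 29.7 ± 7.24 (SD, n = 4) with combination 10 µg, against 5.55 ± 6.84 (SD, n = 4) with isotype. The order ran from combination 2 µg down through NHS-muIL12 2 µg, combination 10 µg, NHS-muIL12 10 µg and avelumab to isotype. The 4 dosed groups overlapped with their neighbours in that order, as did avelumab with NHS-muIL12 10 µg.

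**Figure D1:**
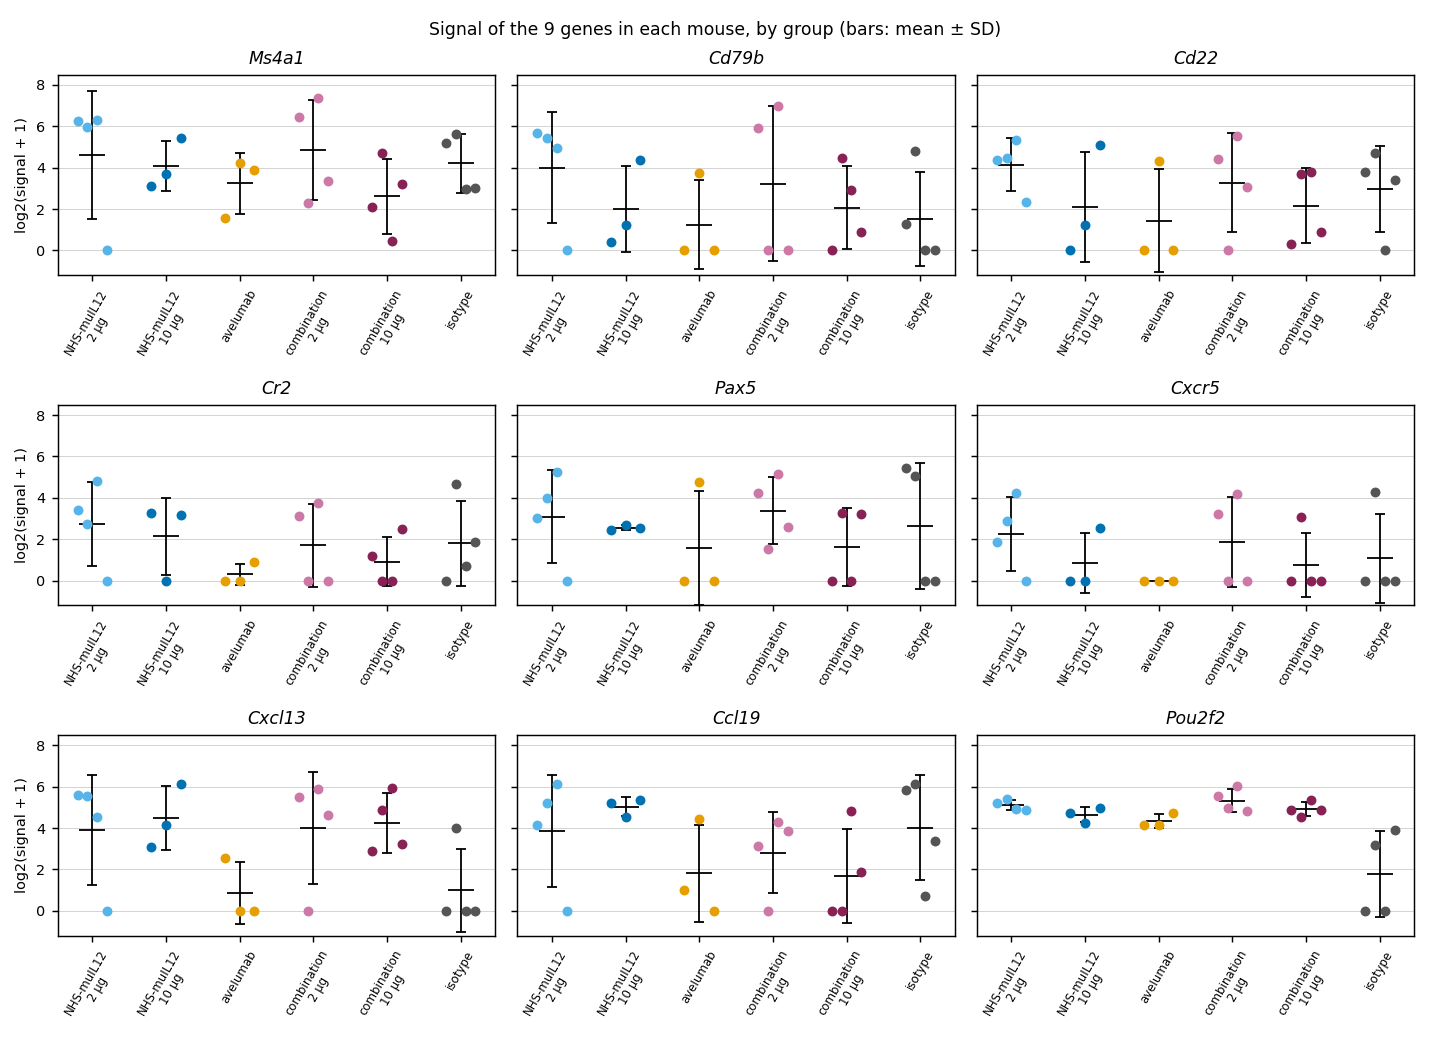
Signal of the 9 genes as log2(signal + 1), one panel per gene, with the treatment groups on the horizontal axis, 1 point per mouse and bars for the group mean ± SD (n = 3 or 4). Pou2f2 sits above the isotype mice in all 5 treated groups with a narrow spread, while each B cell marker has mice near 0 beside high mice within a group.

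The log2 change of Pou2f2 was 2.86 ± 0.71 (SE) with NHS-muIL12 10 µg (limma adjusted p = 0.0183), 3.55 ± 0.66 with combination 2 µg (limma adjusted p = 0.00426) and 3.13 ± 0.66 with combination 10 µg (limma adjusted p = 0.00501). With NHS-muIL12 2 µg the change was 3.34 ± 0.66 and missed the threshold (limma adjusted p = 0.0657, the smallest of that comparison), and with avelumab it was 2.55 ± 0.71 (limma adjusted p = 0.611). These comparisons share the isotype mice and 1 spread per gene over all groups. For Pou2f2 the SD of log2 values was 2.07 in the isotype mice, against 0.96 pooled within all groups. Its errors against isotype thus rest on a spread smaller than that of the isotype mice. Of the 9 genes, 1 was thus called with NHS-muIL12 10 µg, where 10.5% of all tested genes were called, 1 with combination 2 µg (9.47% of all genes) and 1 with combination 10 µg (19.7% of all genes). With 1 mouse left out, the number of all genes called ran from 23 to 90 with NHS-muIL12 10 µg (79 with all mice), from 16 to 140 with combination 2 µg (71) and from 63 to 227 with combination 10 µg (148). With NHS-muIL12 2 µg limma called 0 of the 9 genes and 0% of all genes (59 of 750 at an unadjusted p under 0.05), and with avelumab 0 of the 9 and 0% (38 of 750 at an unadjusted p under 0.05).

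Complete separation above isotype, as seen for Pou2f2, was found for 1.33% of all genes with avelumab, 5.73% with NHS-muIL12 2 µg, 12.9% with combination 2 µg, 16.9% with combination 10 µg and 20% with NHS-muIL12 10 µg. By the exact two-sided permutation test, Pou2f2 had p = 0.0286 in each of the 3 comparisons of 4 with 4 mice, the smallest p that this size allows, p = 0.0857 with NHS-muIL12 10 µg and p = 0.143 with avelumab. Because 2 isotype mice are at 0, the size of the change rests on the added constant. With 10 in place of 1 the log2 change was 1.60 with NHS-muIL12 2 µg, 1.23 with NHS-muIL12 10 µg and 1.02 with avelumab. It was 1.78 with combination 2 µg and 1.44 with combination 10 µg. All passed the threshold but avelumab (limma adjusted p = 0.653). NHS-muIL12 2 µg (limma adjusted p = 0.00913) thus joined the 3 groups called before. The calls in the 3 groups were lost without the 4 libraries of high lower quartile (limma adjusted p = 0.199, 0.148 and 0.0647 for NHS-muIL12 10 µg, combination 2 µg and combination 10 µg), with log2 changes of 2.52, 3.37 and 2.96, a setting that leaves 2 isotype mice. With the lower quartile as a covariate the same 3 calls were kept (limma adjusted p = 0.0146, 0.00633 and 0.00375). All 3 calls were lost when only the groups compared were fitted (limma adjusted p = 0.221, 0.0811 and 0.118). The call with NHS-muIL12 10 µg was also lost without its replicate 2 (limma adjusted p = 0.0519) or its replicate 3 (limma adjusted p = 0.0722).

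None of the 5 B cell markers passed in any of the 13 comparisons. Their within-group SD of log2 values was 1.74 to 2.62, and the SD of their group means was 0.74 to 1.06. Means of 3 or 4 mice vary less than single mice, and the within-group SD was also the larger for Cxcr5, Cxcl13 and Ccl19. Ms4a1, the CD20 gene, was at 74.2, 62.2, 78.5 and 0 with NHS-muIL12 2 µg, 7.58, 12.1 and 41.6 with 10 µg and 1.97, 17.8 and 13.97 with avelumab. In the combinations it was at 85.8, 3.97, 162.7 and 9.21 (2 µg) and 3.28, 25.5, 0.357 and 8.39 (10 µg), against 35.8, 48.8, 6.70 and 7.19 in isotype mice. High and low mice stood side by side in both 2 µg groups, and all 5 treated groups overlapped with isotype.

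Cd79b, the signalling partner of the B cell receptor, was at 49.98, 41.6, 29.7 and 0 with NHS-muIL12 2 µg, 0.320, 1.35 and 19.8 with 10 µg and 0, 12.3 and 0 with avelumab. It was at 59.8, 0, 125.0 and 0 with combination 2 µg and 0, 21.3, 6.61 and 0.846 with combination 10 µg, against 1.39, 26.7, 0 and 0 in isotype mice. The 2 combination 2 µg mice at 0 are those with the lowest Ms4a1 in that group. Its log2 change was largest with NHS-muIL12 2 µg, 2.49 ± 1.78 (SE), an interval of -1.26 to 6.25 at 95% (limma adjusted p = 0.753), and the change without replicate 4 of that group was 3.83 (limma adjusted p = 0.650).

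Cd22, the sialic acid-binding inhibitory receptor, was at 19.97, 21.02, 39.96 and 4.11 with NHS-muIL12 2 µg, 0, 1.35 and 33.3 with 10 µg and 0, 19.2 and 0 with avelumab. It was at 20.7, 0, 45.02 and 7.51 with combination 2 µg and 0.245, 11.8, 12.9 and 0.846 with combination 10 µg, against 12.9, 25.6, 0 and 9.48 in isotype mice. Again the isotype range covered mice of every treated group.

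Cr2, the complement receptor gene, was at 9.57, 5.75, 27.1 and 0 with NHS-muIL12 2 µg, 8.61, 0 and 8.10 with 10 µg and 0, 0 and 0.870 with avelumab. It was at 7.68, 0, 12.5 and 0 with combination 2 µg and 1.26, 0, 0 and 4.62 with combination 10 µg, against 0, 24.4, 0.625 and 2.63 in isotype mice. Of the 22 mice 9 were at 0, so much of its range is at the floor of the table.

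Pax5, the B cell identity factor, was at 7.27, 15.0, 37.4 and 0 with NHS-muIL12 2 µg, 4.47, 5.47 and 4.75 with 10 µg and 0, 26.1 and 0 with avelumab. It was at 17.8, 1.90, 34.5 and 4.96 with combination 2 µg and 0, 8.61, 0 and 8.39 with combination 10 µg, against 42.4, 32.6, 0 and 0 in isotype mice. No dosed mouse exceeded isotype replicate 1, the highest of all 22 mice for this gene.

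Taken as a list, the markers had a median log2 change of 0.94 with NHS-muIL12 2 µg, -0.07 with NHS-muIL12 10 µg, -1.04 with avelumab, 0.66 with combination 2 µg and -0.89 with combination 10 µg. The medians over all 750 genes were -0.01, 0.10, -0.20, -0.04 and 0.05 in the same comparisons. The summed signal of the 5 markers exceeded 100 in 7 of 22 mice: 3 with NHS-muIL12 2 µg, 1 with NHS-muIL12 10 µg, 2 with combination 2 µg and 1 with isotype. Of these 7 mice, 3 belong to the 4 libraries with the highest lower quartile. All 5 markers were above 0 in 8 mice, these 7 and combination 10 µg replicate 4. The within-group SD of log2 values, pooled over all groups, was 2.62 for Cd79b, 2.18 for Pax5, 2.11 for Cd22, 2.08 for Ms4a1 and 1.74 for Cr2, against 0.96 for Pou2f2. For Pou2f2 this pools 2.07 in the isotype mice with 0.24 to 0.55 in the treated groups. Among the 202 genes in the brightness range of the 9, 15.3% had a smaller SD than Pou2f2 and 99.0% had a smaller SD than Cd79b.

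**Figure D2:**
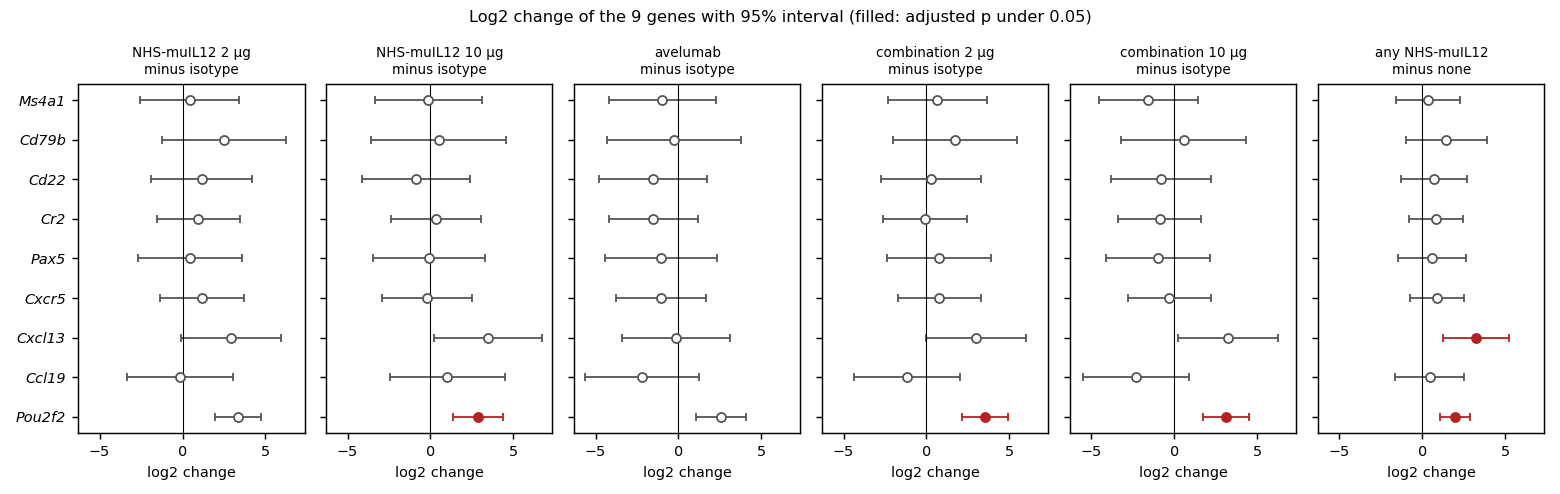
Log2 change of the 9 genes in the 5 comparisons with isotype and in dosed minus undosed mice, with 95% intervals from limma (horizontal axis: log2 change, 1 row per gene, filled points: adjusted p under 0.05). Pou2f2 is filled with NHS-muIL12 10 µg and both combinations, Cxcl13 only in dosed minus undosed mice, and the intervals of the 5 B cell markers include 0 in all 6 panels.

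Cxcl13, the chemokine of B cell follicles, was present in most dosed mice and near or at 0 in most undosed ones. Its signal was 47.7, 45.6, 21.99 and 0.00222 with NHS-muIL12 2 µg, 7.58, 17.0 and 70.1 with 10 µg and 4.93, 0 and 0 with avelumab. It was 43.9, 0, 59.1 and 23.7 with combination 2 µg and 6.31, 28.6, 61.1 and 8.39 with combination 10 µg, against 0, 15.1, 0 and 0 in isotype mice. Thus 13 of 15 dosed mice were over a signal of 1, against 2 of 7 undosed mice, and the dosed and undosed mice overlapped. Over the group means, dosed minus undosed gave a log2 change of 3.23 ± 0.94 (SE; limma adjusted p = 0.0169), and the exact two-sided permutation test of 15 against 7 mice gave p = 0.00189.

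In that comparison 2 of the 9 genes were called, both higher, where 22.7% of all genes were called. The other was Pou2f2, with a log2 change of 1.94 ± 0.43 (SE; limma adjusted p = 0.00280; exact permutation p = 2.93e-05, higher in 13 of 15 dosed mice than in any undosed mouse). Of these 13 mice 1 was at 25.20, nearly level with the highest undosed mouse (25.19). The call of Cxcl13 was lost without avelumab replicate 3 (limma adjusted p = 0.0542). Against isotype alone its changes were 2.92 with NHS-muIL12 2 µg, 3.47 with NHS-muIL12 10 µg, 3.00 with combination 2 µg and 3.23 with combination 10 µg, and -0.15 with avelumab, with limma adjusted p from 0.121 to 0.991. The 5 B cell markers were all higher on average in dosed mice, with a median log2 change of 0.71 against 0.07 over all genes, and 0 of the 5 passed.

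Because Cxcl13 and Pou2f2 were the only 2 of the 9 genes called, the RefSeq window at a start site of each is shown. They were taken from RefSeq (GRCm38.p6), which gave windows for 6 of the 9 genes (Cd22, Cr2, Pax5, Cxcl13, Ccl19 and Pou2f2), each from 250 bases before to 50 after an annotated start. For Pou2f2 that start is an internal one, 48337 bases inside the gene from its outermost start (chr7:25087350-25180797, minus strand), so the window does not cover the sequence before the outermost start. The Cd22 and Cr2 windows also lie at starts inside the gene, by 1314 and 161 bases, and the other 3 lie at the outermost start. Searches on both strands covered the octamer ATGCAAAT bound by OCT2, GGGAGATTT, the core of a site for NF-kappaB dimers with RelB known from the mouse Cxcl13 promoter, and TTCNNNGAA, the core of gamma-activated sites bound by STAT factors. Capitals mark GGGAGATTT, the only motif found.
Cxcl13, chr5:95956689-95956988, plus strand: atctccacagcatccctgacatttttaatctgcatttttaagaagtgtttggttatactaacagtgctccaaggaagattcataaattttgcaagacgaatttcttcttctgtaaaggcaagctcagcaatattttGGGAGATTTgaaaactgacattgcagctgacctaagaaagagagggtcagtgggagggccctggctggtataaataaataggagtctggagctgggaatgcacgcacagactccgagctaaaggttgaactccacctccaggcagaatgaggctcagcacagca
Pou2f2, chr7:25132411-25132710, minus strand: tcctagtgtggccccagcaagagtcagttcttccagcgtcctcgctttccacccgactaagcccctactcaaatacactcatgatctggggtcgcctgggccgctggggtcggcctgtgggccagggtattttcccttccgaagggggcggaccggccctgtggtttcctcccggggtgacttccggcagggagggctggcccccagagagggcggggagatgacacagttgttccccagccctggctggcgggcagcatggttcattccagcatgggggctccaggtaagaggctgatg

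The NF-kappaB site began 114 bases before the Cxcl13 start and was found in 1 of 6 windows of these genes and in 0.317% of 32851 RefSeq windows. Since it was searched because it is known from Cxcl13, the match is a description. The octamer was found in 0 of the 6 windows and 1.74% of all windows, and TTCNNNGAA in 0 of the 6 and 8.30% of all. The genes for the RelB factor and its partner, Relb and Nfkb2, did not pass in dosed minus undosed mice. Relb averaged 229 ± 31.9 (SD, n = 15) in dosed mice and 257 ± 43.8 (SD, n = 7) in undosed mice, and Nfkb2 687 ± 63.5 and 781 ± 63.6 in the same groups.

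Cxcr5, the receptor for CXCL13 on B cells and follicular helper T cells, was above 0 in 8 of 22 mice. It was at 2.65, 6.41, 18.1 and 0 with NHS-muIL12 2 µg, 0, 0 and 4.75 with 10 µg and 0 in all 3 avelumab mice. It was at 8.41, 0, 16.9 and 0 with combination 2 µg and 0, 7.56, 0 and 0 with combination 10 µg, against 0, 18.6, 0 and 0 in isotype mice. These 8 mice were the 7 with a summed B cell marker signal over 100 and combination 10 µg replicate 2.

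Ccl19, the T cell zone chemokine, was at 16.5, 36.3, 69.5 and 0 with NHS-muIL12 2 µg, 36.6, 21.97 and 39.96 with 10 µg and 0.984, 20.6 and 0 with avelumab. It was at 7.68, 0, 18.7 and 13.5 with combination 2 µg and 0, 0, 27.2 and 2.73 with combination 10 µg, against 55.5, 69.8, 0.625 and 9.48 in isotype mice. Its 4 highest mice were the 4 libraries with the highest lower quartile. Over the 3 groups with avelumab minus the 3 without, its log2 change was -2.21 ± 0.92 (SE; unadjusted p = 0.0283, limma adjusted p = 0.252). It was -1.14 with the lower quartile as a covariate and -1.25 without the 4 libraries, and it passed only with array weights (-3.05). In that comparison 0 of the 9 genes and 0% of all genes passed in limma, with 2 of the 9, Ccl19 and Pou2f2, and 128 of all 750 at an unadjusted p under 0.05.

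Pou2f2 was set against the B cell markers by its change minus theirs. With combination 10 µg its change exceeded that of Ms4a1 by 4.72 ± 1.22 (SE), of Pax5 by 4.14 ± 1.34, of Cr2 by 4.03 ± 0.95, of Cd22 by 3.95 ± 1.15 and of Cd79b by 2.58 ± 1.37, on the log2 scale. With NHS-muIL12 2 µg the same differences ran from 0.85 ± 1.37 for Cd79b to 2.91 ± 1.22 for Ms4a1. Limma on the difference in each mouse called 3 of the 5 markers with NHS-muIL12 2 µg, 3 with NHS-muIL12 10 µg, 4 with avelumab, 4 with combination 2 µg and 4 with combination 10 µg. The difference of Pou2f2 from any gene passed for 97.9%, 85.3%, 96.1%, 97.5% and 92.4% of the other 749 genes in the same comparisons, so the markers' shares were below the background.

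Every such difference contains Pou2f2 itself, and the fit moderates the wide spread of the dim markers towards that of all differences. The exact two-sided permutation test, chosen after the data were seen, gave an unadjusted p of 0.0286 for Cr2 with combination 2 µg and for Cd22 and Cr2 with combination 10 µg, and 0.0571 or more for the other markers. After adjustment over the 8 genes paired with Pou2f2, the smallest exact permutation p was 0.0762, with combination 10 µg. In dosed minus undosed mice, limma called 0 of the 5 markers against 82.9% of the other 749 genes (0 of 5 also at an unadjusted p under 0.05), with differences from 0.50 ± 0.90 for Cd79b to 1.62 ± 0.80 for Ms4a1.

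**Figure D3:**
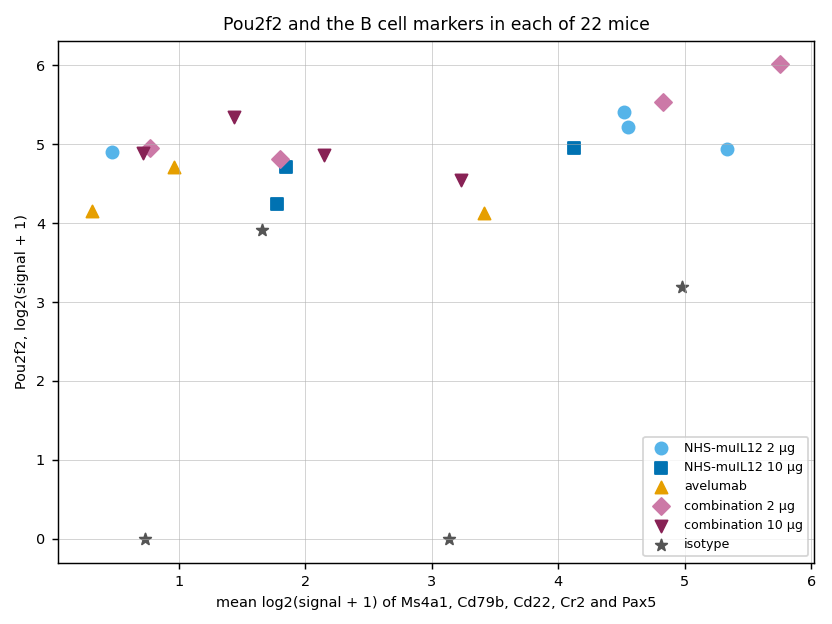
Pou2f2 as log2(signal + 1) on the vertical axis against the mean log2(signal + 1) of the 5 B cell markers on the horizontal axis, 1 point per mouse, with shape and colour for the group. Treated mice lie between 4.12 and 6.01 for Pou2f2 whether the markers average under 1 or over 5, and the 4 isotype mice lie below them.

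Single mice differed in whether they showed the contrast. Combination 2 µg replicate 3 had the highest Pou2f2 of the 22 mice (63.5) together with the highest Ms4a1 (162.7), Cd79b (125.0) and Cd22 (45.02). Replicate 1 of that group had Pou2f2 at 45.3, Ms4a1 at 85.8 and Cd79b at 59.8. Another 3 mice, picked for the contrast, went the other way. In NHS-muIL12 2 µg replicate 4, Pou2f2 was at 28.8 while Ms4a1, Cd79b, Cr2 and Pax5 were at 0 and Cd22 at 4.11. In combination 2 µg replicate 2, Pou2f2 was at 29.9 while Cd79b, Cd22 and Cr2 were at 0, Ms4a1 at 3.97 and Pax5 at 1.90. In isotype replicate 1, Pou2f2 was at 0 while Ms4a1 was at 35.8, Pax5 at 42.4, Cd22 at 12.9, Cd79b at 1.39 and Cr2 at 0. The lower quartile of signal was 6.17, 7.08 and 39.1 in these last 3 libraries, and 16.9 and 12.7 in combination 2 µg replicates 3 and 1. Its part in the values of single mice was not tested. Counts of markers that differed from Pou2f2 with it as a covariate are given below.

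No difference in the 9 genes passed between the doses or between a combination and NHS-muIL12 alone. For combination minus NHS-muIL12 alone, limma called 0 of the 9 genes at 2 µg, where 0.267% of all genes were called, and 0 of 9 and 0% at 10 µg. For 10 µg minus 2 µg it called 0 of 9 and 0% without avelumab, and 0 of 9 and 0% with it. None of the 9 genes had an unadjusted p under 0.05 in these 4 comparisons, where 83, 35, 103 and 35 of all 750 genes did, in the order given. Pou2f2 differed by 0.21 ± 0.66 (SE) between combination 2 µg and NHS-muIL12 2 µg, with a 95% interval of -1.18 to 1.59, and by 0.28 ± 0.71 between combination 10 µg and NHS-muIL12 10 µg, with an interval of -1.22 to 1.77. Ccl19 had the largest difference of these, -3.36 ± 1.64 for combination 10 µg minus NHS-muIL12 10 µg (limma adjusted p = 0.932).

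The interaction asks whether both agents together differ from the sum of each alone. For Pou2f2 it was -2.34 ± 0.97 (SE) at 2 µg (unadjusted p = 0.0266) and -2.28 ± 1.00 at 10 µg (unadjusted p = 0.0365), on the log2 scale. Neither passed in limma (adjusted p = 0.909 and 0.992), and 0 of the 9 genes and 0% of all genes were called at either dose. At an unadjusted p under 0.05 there was 1 of the 9 genes at each dose, and 37 (2 µg) and 16 (10 µg) of all 750. Because 2 isotype mice are at 0 for Pou2f2, the size of its interaction also rests on the added constant.

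The B cell markers varied together from mouse to mouse. Over 22 mice, Pearson's r between pairs of the 5 markers ran from 0.47 to 0.83 and Spearman's rho from 0.37 to 0.85. It ran from 0.38 to 0.83 on deviations from group means, and from 0.34 to 0.81 without the 2 mice farthest from the median. For Pou2f2 with the 5 markers r ran from 0.00 to 0.35 and rho from 0.10 to 0.48, with r from -0.05 (Pax5) to 0.53 (Cr2) on deviations from group means. Cxcr5 had r from 0.65 to 0.87 with the markers, Ccl19 from 0.52 to 0.66 and Cxcl13 from 0.37 to 0.70. These values describe 22 libraries that share a probe set and differ at their low end. With the lower quartile of the library, r was 0.84 for Ccl19, 0.70 for Cd22, 0.68 for Pax5, 0.54 for Ms4a1, 0.39 for Cxcl13 and 0.04 for Pou2f2. Without the 4 libraries of high lower quartile, the marker pairs had r from 0.33 to 0.83 and Pou2f2 with the markers had r from 0.25 to 0.44.

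**Figure D4:**
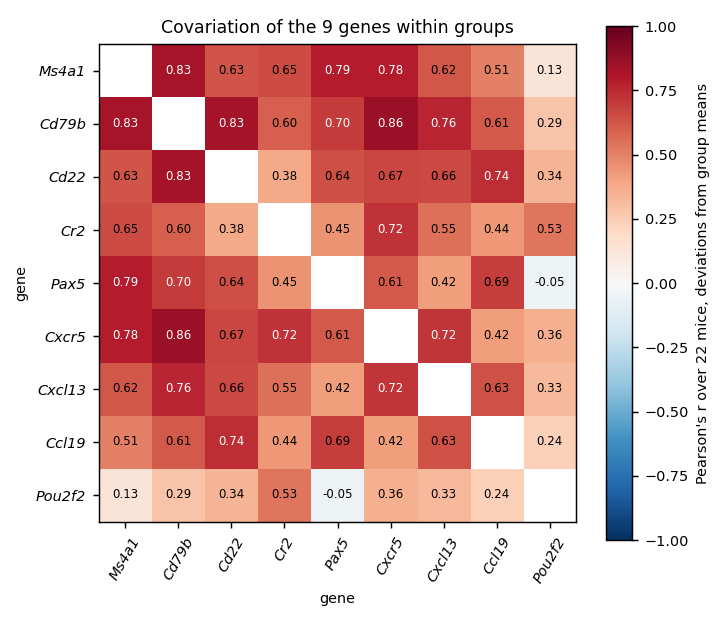
Pearson's r between each pair of the 9 genes over 22 mice, on log2(signal + 1) as deviations from the group means, with colour and printed value for r. The markers and Cxcr5 reach up to 0.86 with each other, and the column of Pou2f2 runs from -0.05 to 0.53.

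By r over 22 mice, not taken as deviations, among all tested genes, the genes most like Pou2f2 were Klrk1, the gene of the NKG2D receptor of NK and T cells (r = 0.73), Flt3l, a growth factor for dendritic cells (0.71), Il10ra, the interleukin-10 receptor (0.70), and Itga4, an integrin subunit of leukocytes (0.68). Spearman's rho was 0.57, 0.33, 0.68 and 0.74 for these 4 genes, and r on deviations from group means was lower, 0.43, 0.58, 0.31 and 0.62. None of these is a B cell marker by the lists used here. Most like Ms4a1 were Ccl21a, a chemokine of lymph nodes (0.83), and Pax5 (0.81). Most like Cd79b were Cxcr5 and H2-DMb2, a class II chaperone (0.87 each). Most like Cr2 were Pmch and Cxcr5 (0.74 each), and most like Cd22 were Irf4, a lymphocyte transcription factor (0.85), and Cd4 (0.84). Cxcl13 was most like Ly9 (0.78) and Clec7a (0.77), and Ccl19 most like Klrc2 (0.89) and Cd6 (0.88). On deviations from group means r was 0.63 and 0.62 for the genes named for Cxcl13 and 0.90 and 0.94 for those of Ccl19. It was 0.72 to 0.87 for those of Ms4a1, Cd79b, Cr2 and Cd22. Klrc2, Cd6 and Pmch are dim, with mean signals of 11.6, 4.84 and 2.07, and Ccl19 had r = 0.84 with the lower quartile. The part of the low end in these likenesses was not tested.

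Other B lineage genes were mostly not called. Of 24 listed genes 17 were measured, and Cd180, a Toll-like receptor relative of B cells and myeloid cells, rose with NHS-muIL12 10 µg, combination 2 µg and combination 10 µg and in dosed minus undosed mice. Its signal was 181 to 558 in dosed mice, against 89.6 to 162 in undosed mice, with no overlap, as was seen for 2.4% of all genes. Its log2 change in dosed minus undosed mice was 1.14 ± 0.18 (SE; limma adjusted p = 3.04e-04), and Btk, a kinase of B cell receptor signalling that myeloid cells also use, rose by 0.70 ± 0.17 (limma adjusted p = 0.00614). In that comparison 2 of the 17 rose and 0 fell, against 22.7% of all genes called, and the median change of the list was -0.22.

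Of 26 listed lymphoid tissue genes 24 were measured. In dosed minus undosed mice 2 rose, Ltb, which encodes lymphotoxin beta, by 1.69 ± 0.53 (SE; limma adjusted p = 0.0277), and Cxcl12, a stromal chemokine, by 1.61 ± 0.37 (limma adjusted p = 0.00379), 0 fell, against 22.7% of all genes called, and the median of the list was 0.12. Against isotype alone limma called 0 of the 24 in any of the 5 groups, where 0% to 19.7% of all genes were called. Ccl21a averaged 71.7 ± 74.6 (SD, n = 15) in dosed mice and 52.8 ± 41.3 (SD, n = 7) in undosed mice.

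Some markers of other cell types moved with some of these groups. Of 11 measured macrophage markers, 7 rose with combination 10 µg, 2 each with NHS-muIL12 10 µg and combination 2 µg, and 6 in dosed minus undosed mice, where 19.7%, 10.5%, 9.47% and 22.7% of all genes were called in that order of groups. Their summed signal was 4449 to 4777 with NHS-muIL12 2 µg, 5657 to 6329 with NHS-muIL12 10 µg, 2154 to 4535 with avelumab, 4616 to 6601 with combination 2 µg and 5609 to 12172 with combination 10 µg, against 2372 to 4833 with isotype. Of 6 measured NK cell markers, Klrk1 rose with NHS-muIL12 10 µg and both combinations. The median log2 change of the 6 was 0.30 with NHS-muIL12 10 µg, -0.32 with combination 2 µg and 0.09 with combination 10 µg. Of 12 T cell markers Lck rose with combination 10 µg, where the median of the 12 was -0.33. In dosed minus undosed mice, 3 of the 6 NK cell markers and 2 of the 12 T cell markers rose, and 0 fell. The list medians were 0.60 and 0.09. Of 5 measured neutrophil markers, Mpo fell with combination 2 µg and none rose. None of 5 measured dendritic cell markers and 3 measured epithelial markers was called against isotype or in dosed minus undosed mice. The summed T cell marker signal was 362 to 1120 with combination 10 µg, against 613 to 782 with isotype. The part of these cell types in the rise of Pou2f2 and Cxcl13 was not tested.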

How the data were processed

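Total RNA of EMT-6 tumours from 22 mice was measured with NanoString probes, per the labels' protocols. The deposited signal values are linear. In each library they lay on an equally spaced scale of 0.664 to 1.68 signal per count (within 0.02 of a step) that stops at 0, so they were read as counts above a background multiplied by a factor by the authors, 197653 to 572089 counts per library. Software, background method and scaling: not given in the sources used here. No count model was fitted, and 9.44% of values were 0.

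The 9 genes and all lists were chosen with earlier results of these data known. With limma 3.58.1 under R 4.3.3 (functions lmFit, contrasts.fit, eBayes), log2(signal + 1) of 750 genes (20 housekeeping genes left out) was fitted with 1 mean per group and 16 residual degrees of freedom. The 13 comparisons, all two-sided, were each treated group minus isotype, the 4 groups with NHS-muIL12 minus the 2 without (dosed minus undosed), the 3 with avelumab minus the 3 without, combination minus NHS-muIL12 alone, dose, and interaction. Group means had equal weight. Pou2f2 minus each gene was fitted the same way over 749 differences. Exact permutation tests compared plain means of mice. The scripts were tested on simulated data with known changes. No columns were identical. The most alike genes were the 4 with the highest r for Pou2f2 and 2 for each other member above 0 in at least 11 mice; those of Pax5 are not reported here. Of the lists, up to 4 called B lineage and lymphoid tissue genes were named. Promoter windows came from RefSeq. Alternatives were pseudocounts of 10 and 30, a mean signal of at least 20, quantile normalization, housekeeping centring, only the groups compared, array weights, a trended robust spread, the lower quartile as a covariate, leaving out 4 libraries or each mouse, and a replicate block.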

Additional observations from a re-analysis of the deposited data

Results flagged for a closer look

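In groups of 4 mice, the gap between the highest or lowest mouse and its nearest neighbour was divided by the range of the group. The values were log2(signal + 1), and the ratio was judged by Dixon's test at the 95% level. Over 36 combinations of gene and group, 5 values from 3 mice stood apart. Chance alone gives about 1 in 20, but not where the other 3 mice are tied at 0, as in 3 of the 5 cases, since any value above 0 then stands apart, and values of 1 mouse are not independent. With NHS-muIL12 2 µg, replicate 4 had Ms4a1 at 0, where the other 3 mice had 62.2 to 78.5, and Cd79b at 0, where they had 29.7 to 49.98. That mouse also had 120 genes at 0 and a lower quartile of signal of 6.17, the lowest of its group. With combination 10 µg, Cxcr5 in replicate 2 was at 7.56, with the other 3 mice at 0. In isotype replicate 2, Cxcr5 was at 18.6 and Cxcl13 at 15.1, with the other 3 isotype mice at 0 for both genes. Isotype replicate 2 had a lower quartile of signal of 43.0, the highest of its group.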

How the results depend on the processing

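Limits: the depth of each library is known only as counts above background, dim genes stop at 0, and groups hold 3 or 4 mice. For 41 results, 9 to 12 alternatives were run on each. Pou2f2 and Cxcl13 in dosed minus undosed mice kept their calls in all of them, apart from Cxcl13 without avelumab replicate 3 (log2 change 3.02). Pou2f2 with NHS-muIL12 2 µg passed with pseudocounts of 10 and 30 (log2 changes 1.60 and 0.86), with the filter on a mean signal of 20 (3.34), with array weights (3.67) and without isotype replicate 2 or 4, with a range of 2.75 to 4.05 when 1 mouse was left out. With NHS-muIL12 10 µg its call was lost without the 4 libraries of high lower quartile (2.52) and with only the groups compared in the fit (2.86), with a range of 2.26 to 3.57. With avelumab it passed with array weights (2.64) and without isotype replicate 4, with a range of 1.96 to 3.27. With combination 2 µg its call was lost without the 4 libraries (3.37) and with only the groups compared (3.55), and with combination 10 µg likewise (2.96 and 3.13), while leaving out any 1 mouse kept both calls. The cause was not tested.

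The count of the 9 genes called was 1 with NHS-muIL12 2 µg under the pseudocounts of 10 and 30, the filter and array weights, and 0 to 1 with 1 mouse left out. It was 0 with NHS-muIL12 10 µg under the 4 libraries left out and only the groups compared (0 to 1 with 1 mouse left out), and 2 with avelumab under array weights (0 to 1). It was 2 with combination 2 µg under quantile normalization and array weights, 0 without the 4 libraries and with only the groups compared, and 1 to 2 with 1 mouse left out. It was 2 with combination 10 µg under quantile normalization, array weights and the lower quartile as a covariate, and 0 without the 4 libraries and with only the groups compared. The second gene under quantile normalization and the covariate was Cxcl13. In dosed minus undosed mice the count was 1 to 2 with 1 mouse left out, and for the groups with avelumab minus those without it was 2 under array weights. Over all genes the count ran over the alternatives from 0 to 90 with NHS-muIL12 2 µg, 0 to 255 with NHS-muIL12 10 µg (79), 0 to 98 with avelumab, 0 to 308 with combination 2 µg (71), 0 to 269 with combination 10 µg (148) and 135 to 310 in dosed minus undosed mice (170).

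With 1 mouse left out, the count over all genes moved by over 1.5 times for NHS-muIL12 10 µg without its replicate 2 (23) or 3 (32) or isotype replicate 2 (28). It did so for combination 2 µg without its replicate 1 (16), 3 (45) or 4 (22) or isotype replicate 1 (26), 2 (19) or 3 (140), and for combination 10 µg without its replicate 3 (63) or isotype replicate 2 (82) or 3 (227).

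The count of B cell markers that differed from Pou2f2 also moved. Counts by the exact permutation test are at an unadjusted p under 0.05 and are 0 in every group after adjustment over the 8 genes. With NHS-muIL12 2 µg it was 1 under the filter, 0 by the exact permutation test and 0 to 4 with 1 mouse left out. With NHS-muIL12 10 µg it was 1 under the filter and without the 4 libraries, 5 with the covariate, 0 with only the groups compared and by the exact permutation test, and 1 to 5 with 1 mouse left out. With avelumab it was 1 with a pseudocount of 30 and under the filter, 2 with only the groups compared, 0 by the exact permutation test, and 2 to 5 with 1 mouse left out. With combination 2 µg it was 1 under the filter, array weights, the 4 libraries left out and the exact permutation test, and 1 to 4 with 1 mouse left out. With combination 10 µg it was 1 under the filter and 2 by the exact permutation test. In dosed minus undosed mice it was 3 with pseudocounts of 10 and 30, 1 under the filter, the trended spread and without the 4 libraries, 4 with the covariate, and 0 to 3 with 1 mouse left out. Under the filter only Ms4a1 of the 5 markers was tested.

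Same-numbered mice of different groups did not deviate together on average (mean r -0.02 over 50 pairs, 15 of them over 0.1, range -0.83 to 0.68). Pairs with different numbers had a mean r of 0.005 (range -0.75 to 0.81). Means this small amid such wide ranges cannot exclude a shared batch. With the replicate block, the markers that differed from Pou2f2 were 5 with NHS-muIL12 10 µg and 3 in dosed minus undosed mice, and the calls of Pou2f2 and Cxcl13 were kept. Ms4a1 with NHS-muIL12 2 µg, at 0.43, changed sign without that group's replicate 1 (-0.11), replicate 2 (-0.02) or replicate 3 (-0.13), and was 1.97 without replicate 4.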

Other observations

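Ccl21a was not among the 9. It was picked as the gene most like Ms4a1 in these same mice. A like split within groups thus follows from the choice, and the values of Ccl21a are given as a description. Its signal was 268, 164, 108 and 18.5 with NHS-muIL12 2 µg and 50.1, 19.5 and 129 with NHS-muIL12 10 µg. It was 24.7, 52.3 and 30.8 with avelumab, 69.2, 3.97, 126 and 46.6 with combination 2 µg and 14.4, 30.7, 4.82 and 22.5 with combination 10 µg, against 119, 101, 12.8 and 28.5 with isotype. The mouse with the lowest Ms4a1 in the NHS-muIL12 2 µg group and in the combination 2 µg group was also the lowest for Ccl21a in that group. Both mice also had the lowest lower quartile of signal of their groups (6.17 and 7.08).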
